A study of Caenorhabditis elegans with 12 samples.

Results

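These results describe 290 windows of 1000 bases whose RNA coverage was lower in Caenorhabditis elegans without HRDE-1 than in the wild type, out of 100257 windows in the deposited table. The windows were chosen by measured values: in each of generations 3 and 4, the mean of the N2 whole and nuclear libraries plus 1 was at least 1.5 times the mean of the hrde-1 whole and nuclear libraries plus 1. The mean of those 4 N2 libraries also had to be at least 10, which 17598 windows met, so the rule took 1.65% of the windows it could take. The same rule turned round, for windows higher in hrde-1 and with the minimum set on the hrde-1 libraries, took 392 windows.

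All animals were young adult hermaphrodites kept at 23 C for 3 or 4 generations. N2 is the laboratory wild type, and the mutant strain carries the tm1200 allele of hrde-1. RNA came from whole animals, from nuclei pelleted through a sucrose cushion, and from the cushion layer taken as cytoplasm. It was freed of ribosomal RNA without selecting for poly(A) tails. Combining genotype and fraction gives 6 groups, and each group has 2 of the 12 libraries, 1 per generation. Whole animals hold germline and somatic tissues, so a lower value can come from fewer cells of a type or from less RNA per cell, which cannot be told apart here. The labels do not say whether libraries came from separate cultures, so errors and p-values cover only the scatter of these libraries and may be technical.

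HRDE-1 is an Argonaute protein that works in germ cell nuclei. It binds small RNAs made against a target transcript, and the nuclear RNAi pathway then represses transcription and deposits repressive histone marks at that gene. Its best known targets are retrotransposons and other repeats, whose RNA rises when it is lost, and silencing passes to following generations. The windows described here went the other way, with less RNA in the mutant.

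Values are the authors' normalized coverage per window. They behave as shares of a library, with column sums of 839240 to 983821 and a floor of 0.1 in every column. Steps in the low values give read equivalents, called reads here: 652368 to 805512 in the whole libraries, 487397 to 908123 in the nuclear libraries, 520662 and 361870 in the hrde-1 cytoplasmic libraries, and 191228 and 263401 in the N2 cytoplasmic libraries. The N2 cytoplasmic libraries were thus the shallowest, and a typical window of the rule held few reads there. No source used here names the genome build, so windows are given by their position in the table; genes, exons and expression of hrde-1 were not analysed here.

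The values that chose the windows are given first, as a description without a test. Mean N2 coverage over whole and nuclear libraries ranged from 10.0 to 257 with a median of 14.7, and mean hrde-1 coverage had a median of 7.53. The smaller of the ratios of generations 3 and 4 had a median of 1.62 and reached 5.11. Most windows therefore sat close to the limits of the rule: both ratios reached 2 in 24 windows and 3 in 6. Just inside the limit of 1.5 lay III:9691001-9692000, III:2784001-2785000 and I:14657001-14658000, with smaller ratios of 1.5, 1.50177 and 1.50179. Just outside lay II:13727001-13728000, III:279001-280000 and II:13911001-13912000, with 1.49993, 1.49978 and 1.49965.

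Summed over the 290 windows, hrde-1 coverage was 0.519 and 0.531 of the N2 coverage in whole RNA in generations 3 and 4, and 0.505 and 0.514 in nuclear RNA. The median log2 difference, hrde-1 minus N2 on log2(coverage + 1), was -0.82 in whole RNA and -0.93 in nuclear RNA. The rule used the mean of both fractions, so these values were fixed by the choice and do not compare the fractions. A window held a median of 22 reads over both N2 whole libraries against 12 in hrde-1, and 28 against 10 in nuclear RNA, so single windows rest on few reads. Neighbouring windows formed 269 regions when at most 1 other window was allowed between them. Of these, 255 were single windows, 10 held 2 windows, 2 held 3, 1 held 4 and 1 held 5.

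The region with the most windows lay at II:8784001-8790000, where the rule took 5 of 6 windows. Its mean coverage per window in whole RNA was 88.1 and 83.1 in N2 and 33.2 and 35.0 in hrde-1, in generations 3 and 4. In nuclear RNA it was 93.7 and 78.6 in N2 and 34.8 and 32.5 in hrde-1. In the cytoplasmic fraction, which the rule did not use, the mean was 109.1 and 76.9 in N2 and 19.5 and 13.9 in hrde-1. Both hrde-1 libraries lay below both N2 libraries in every fraction. N2 was 2.51-fold above hrde-1 in whole, 2.56-fold in nuclear and 5.56-fold in cytoplasmic RNA; whether the folds differ between fractions was not tested. The cytoplasmic means were 93.0 ± 22.8 and 16.7 ± 3.98 (SD, n = 2), from 241 and 82 reads. By reads, hrde-1 held 0.188 of the N2 cytoplasmic coverage, with an exact 95% interval of 0.145 to 0.243 that covers counting error only.

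Each of the 5 windows of this region fell in cytoplasmic RNA in the fit across all windows (limma, Benjamini-Hochberg adjustment over 43933 windows, threshold 0.05). The highest coverage was at II:8788001-8789000, with 242.9 and 170.1 in N2 cytoplasm and 48.7 and 41.6 in hrde-1. Its log2 difference was -2.15 (adjusted p = 0.000508, 107 against 44 reads). The window before it, II:8787001-8788000, had 87.1 and 66.2 in N2 and 7.58 and 7.01 in hrde-1, a log2 difference of -3.21 (adjusted p = 0.000352, 40 against 7 reads). These 2 windows kept their call in every alternative that was run except the fit of the cytoplasmic groups alone. In that fit both had a limma adjusted p of 0.509, and 0 of all 36073 windows tested were called (2936 at an unadjusted p under 0.05). It leaves 2 residual degrees of freedom, so it decides little for single windows, and the calls depend on libraries of the other fractions.

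The remaining windows of the region rest on fewer reads or on libraries that lay further apart. At II:8789001-8790000 the cytoplasmic values were 155.8 and 85.1 in N2 and 33.8 and 16.2 in hrde-1 (log2 difference -2.25, adjusted p = 0.0156). The start of the region, II:8784001-8785000, had 27.6 and 37.9 in N2 against 1.97 and 0.1 in hrde-1 (log2 difference -4.20, SE 0.624, adjusted p = 0.00916, 18 against 1 reads). At II:8785001-8786000 the values were 32.2 and 25.3 against 5.71 and 4.71 (log2 difference -2.25, adjusted p = 0.0282). Leaving out hrde-1 cytoplasmic replicate 2 ended the call at II:8784001-8785000, and the calls at the other 2 were lost in 6 and 12 alternatives respectively, of which 3 and 8 each left out 1 library. The 1 window inside the region that the rule left out, II:8786001-8787000, was below the minimum, with N2 whole coverage of 9.87 and 9.73 against 4.21 and 6.29.

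**Figure D1:**
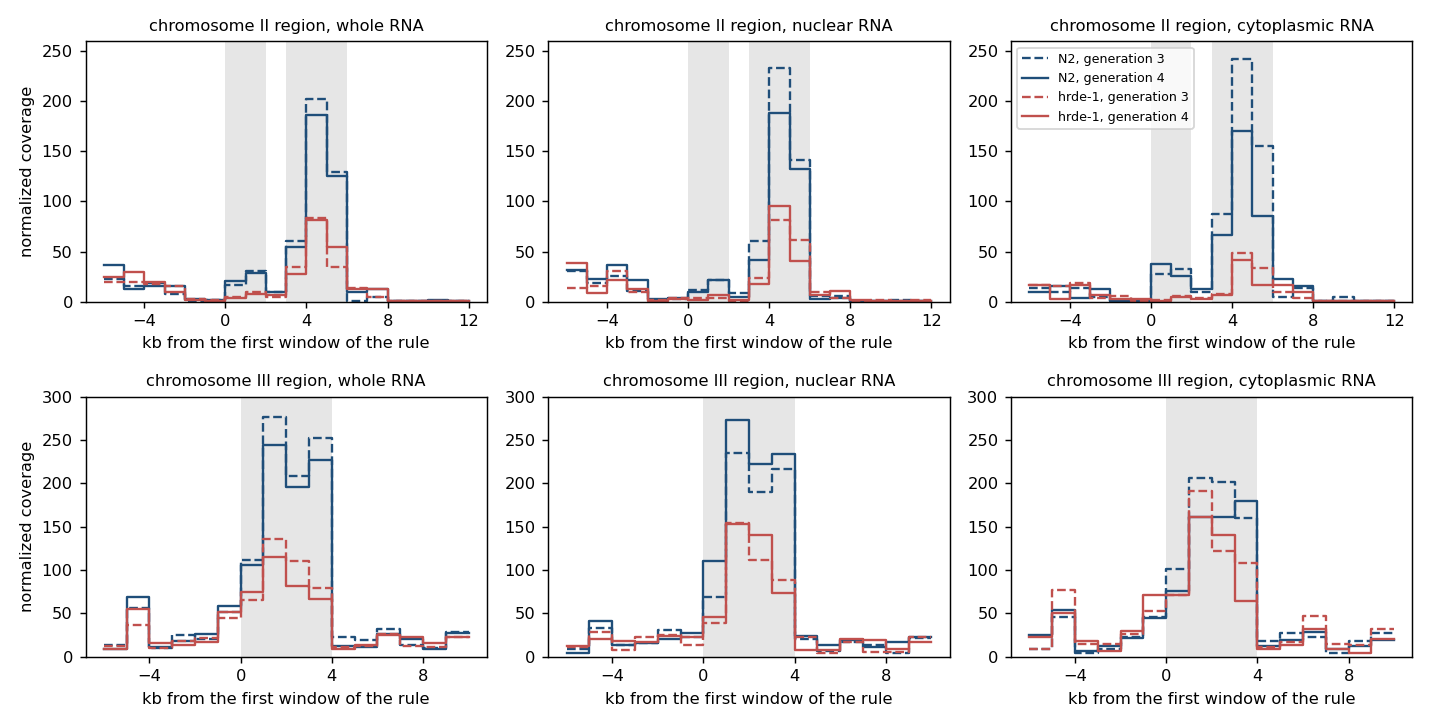
Normalized coverage of each library in windows of 1000 bases along the region on chromosome II with 5 windows of the rule (upper row) and the region on chromosome III with 4 (lower row), in whole, nuclear and cytoplasmic RNA; the x axis is the distance in kb from the first window of the rule, grey marks the windows of the rule, and dashed and solid lines are generations 3 and 4. Within the grey windows on chromosome II the hrde-1 lines lie below the N2 lines in all fractions. This also holds in the window between them that is not grey, but not in the windows outside the region. In the grey windows on chromosome III the lines lie closer in cytoplasmic RNA, where N2 was 1.34-fold above hrde-1.

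The region with the highest coverage lay at III:4172001-4176000, with 4 windows. In whole RNA its mean per window was 212.3 and 193.3 in N2 and 98.0 and 84.6 in hrde-1. In nuclear RNA it was 177.6 and 209.7 in N2 and 98.4 and 103.4 in hrde-1. The cytoplasmic libraries gave 167.3 and 144.1 in N2 and 123.1 and 109.5 in hrde-1. The groups did not overlap in any fraction, but the cytoplasmic gap was the smallest of the 3: N2 was 2.22-fold above hrde-1 in whole, 1.92-fold in nuclear and 1.34-fold in cytoplasmic RNA, and these folds were not tested against each other. The cytoplasmic means were 155.7 ± 16.4 and 116.3 ± 9.58 (SD, n = 2), and their ratio by reads was 0.762 (exact 95% interval 0.659 to 0.881, counting error only, 329 and 453 reads).

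The 4 windows of this region differed among themselves in cytoplasmic RNA, and 0 of them passed the test. The last, III:4175001-4176000, had cytoplasmic values of 160.4 and 179.6 in N2 and 108.6 and 64.6 in hrde-1, a log2 difference of -1.01 (limma, SE 0.240, adjusted p = 0.0650). It passed the threshold in 6 of the alternatives. Over all alternatives, passed or not, its limma adjusted p ranged from 0.0398 to 0.242, leaving aside the fit of the cytoplasmic groups alone. It was also the window of the region with the largest whole RNA gap, 252.8 and 226.4 in N2 against 79.5 and 66.9 in hrde-1. At III:4173001-4174000, which had the highest coverage of all 290 windows in N2, the cytoplasmic values were 206.2 and 160.7 in N2 and 190.9 and 161.3 in hrde-1 and overlapped, with a log2 difference of -0.05 (adjusted p = 1.0). The other 2 windows had cytoplasmic log2 differences of -0.29 and -0.46.

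Within 100 kb of that region, III:4270001-4272000 held 2 windows with some of the largest ratios in the set. Whole RNA coverage was 18.3 and 16.3 in N2 and 2.16 and 1.34 in hrde-1. Nuclear coverage was 16.6 and 13.8 against 3.00 and 3.29, and cytoplasmic coverage was 11.6 and 22.1 against 1.97 and 2.40. The groups did not overlap in any fraction, and N2 was 9.91-fold, 4.83-fold and 7.71-fold above hrde-1 in whole, nuclear and cytoplasmic RNA. The cytoplasmic ratio rests on 19 and 4 reads and was 0.116 (exact 95% interval 0.0288 to 0.350). The window III:4270001-4271000 fell in cytoplasmic RNA (log2 difference -2.72, SE 0.527, limma adjusted p = 0.0310), but this call was lost in 14 of 22 alternatives. Its neighbour, III:4271001-4272000, had a log2 difference of -2.05 (adjusted p = 0.129).

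**Figure D2:**
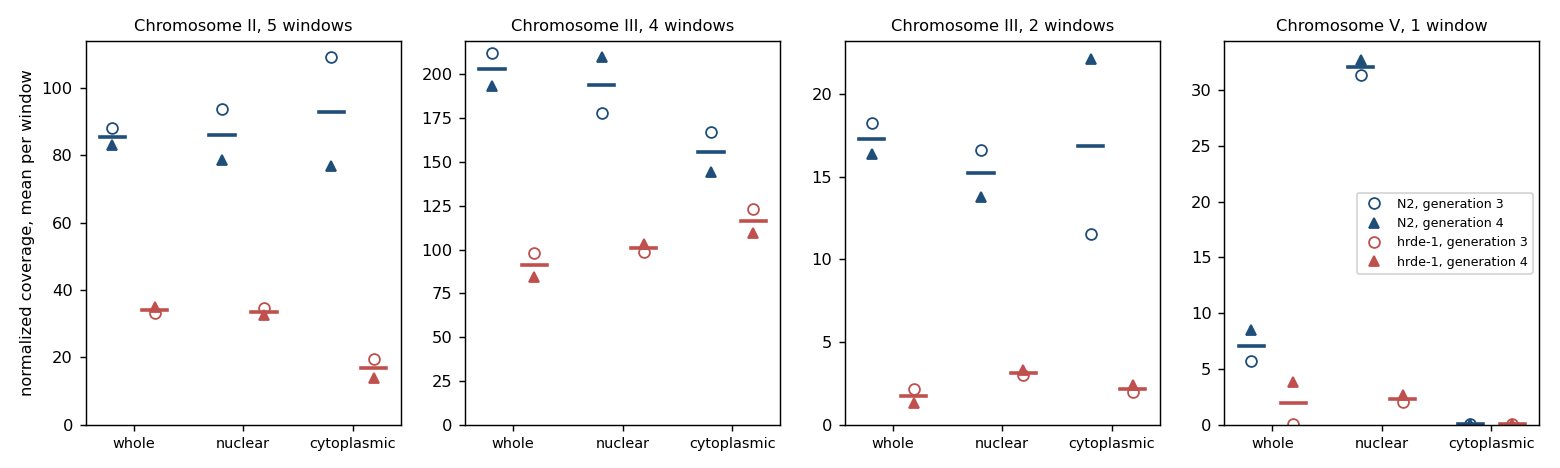
Mean normalized coverage per window (linear axes from 0) in each library, for the regions on chromosomes II and III described above and the single window with the largest ratio, on chromosome V; circles are generation 3, triangles generation 4, and horizontal lines the mean of 2 libraries. The hrde-1 points lie below the N2 points in every fraction of the 3 regions, and the chromosome V window is at the floor of 0.1 in all 4 cytoplasmic libraries.

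The window with the largest ratio, V:15585001-15586000, was lower mainly in nuclear RNA. Its nuclear coverage was 31.4 and 32.7 in N2 and 2.03 and 2.65 in hrde-1. Its whole RNA coverage was 5.68 and 8.52 in N2 and 0.1 and 3.81 in hrde-1, and all 4 cytoplasmic libraries were at the floor of 0.1. It was 1 of 5 windows of the rule at the floor in every cytoplasmic library; the others were II:8289001-8290000, IV:4397001-4398000, IV:4399001-4400000 and X:9122001-9123000. N2 coverage of these 5 was 11.4 to 32.7 in nuclear RNA and 1.5 to 9.73 in whole RNA, so they were nuclear-rich windows with no cytoplasmic reads. The 2 on chromosome IV formed 1 region, whose nuclear mean was 16.0 and 20.6 in N2 and 5.89 and 14.1 in hrde-1. At this depth no cytoplasmic difference was detectable in them.

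Apart from these, 2 kinds of window stood at the ends of the set. Among those with the highest N2 coverage, I:12862001-12863000 had whole RNA values of 75.5 and 74.7 in N2 and 43.9 and 53.3 in hrde-1, while its cytoplasmic values of 45.9 and 82.0 in N2 spanned the 56.2 and 57.7 of hrde-1. At X:13927001-13928000 nuclear values were 56.7 and 47.4 in N2 and 29.0 and 28.2 in hrde-1, and cytoplasmic values, 23.0 and 31.6 against 56.2 and 23.1, overlapped. I:9366001-9367000 likewise overlapped in cytoplasm, with 32.2 and 12.7 in N2 and 20.7 and 16.2 in hrde-1. These windows had well-covered N2 whole RNA, and their cytoplasmic log2 differences of -0.11, 0.41 and -0.14 did not pass the test.

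Windows with large ratios but low coverage included III:6563001-6564000, IV:3253001-3254000, X:9742001-9743000 and V:2324001-2325000. At V:2324001-2325000 the cytoplasmic values were 9.26 and 9.54 in N2 and 1.97 and 4.71 in hrde-1, which did not overlap, with a log2 difference of -1.34 that did not pass the test (limma adjusted p = 0.250). At III:6563001-6564000 they were 0.1 and 3.25 in N2 and 9.45 and 0.1 in hrde-1, and at X:9742001-9743000 13.8 and 0.1 against 7.58 and 4.71. At IV:3253001-3254000 they were 4.68 and 3.25 in N2 and 0.1 and 4.71 in hrde-1. In the last 3 windows the genotypes overlapped, and single reads decide such values.

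The cytoplasmic libraries took no part in the choice of windows and show how far the lower coverage extended beyond whole and nuclear RNA. As a set, the 290 windows were not lower there. Their median cytoplasmic log2 difference was 0.38, beside 0.34 in the other windows with an N2 mean of at least 10 and 0.25 in all 43933 windows tested. Summed coverage in hrde-1 cytoplasm was 1.14 of that in N2 in generation 3 and 1.00 in generation 4, against 1.096 and 0.994 over all windows with that minimum. The name of windows lower without HRDE-1 thus holds for the mean of whole and nuclear RNA, by the rule, and not for cytoplasmic RNA as a group. Taken singly, whole RNA was lower in hrde-1 in 276 and 270 of the 290 windows in generations 3 and 4. Nuclear RNA was lower in 280 and 283. In the windows of the mirrored rule the median cytoplasmic log2 difference was 1.41, and summed coverage was 3.74 and 3.37 times that of N2.

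Window by window, 7 of the 290 were called lower and 4 higher in hrde-1 cytoplasm, where 0.0637% of all windows tested were called lower and 0.803% higher. At an unadjusted p under 0.05 there were 13 lower and 47 higher, together 20.7% of the 290, against 16.8% of all windows tested. Both hrde-1 libraries lay below both N2 libraries in 29 windows, or 10.0%, against 8.36% of all windows with an N2 mean of at least 10. They lay above in 83 windows, or 28.6%, against 34.0%. These shares without overlap are near the background in both directions. Of the 28 windows called lower among all 43933 tested, 7 were windows of the rule, and of the 353 called higher, 4 were. The 7 are not independent, as 5 lie in 1 region, and many windows tested had lower coverage than the rule allows. With a minimum mean of 10 over all libraries, 77 of 16771 windows were called lower and 424 higher. Among the 156 windows of the rule in that fit, 7 were called lower and 4 higher. With 2 libraries against 2, an exact permutation test of a single window cannot give a p below 0.333. The calls rest on a spread pooled over all 12 libraries of a window and drawn towards that of all windows. Of these libraries, the 8 whole and nuclear ones chose the windows, so the error of the cytoplasmic test is not independent of the rule. Of the 7 windows called lower, 5 make up the chromosome II region and 1 is III:4270001-4271000.

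These counts were smaller when libraries were weighted. With library weights estimated from the data, 4 windows of the rule were called lower and 0 higher. Among all 43933 windows tested, 4 were then called lower and 55 higher, against 28 and 353 without weights. With weights by read depth, 3 windows of the rule were called lower and 0 higher, where 4 and 17 of all windows tested were called. All of the windows of the rule called lower under either weighting lay in the chromosome II region. Both weightings were chosen after seeing the data.

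**Figure D3:**
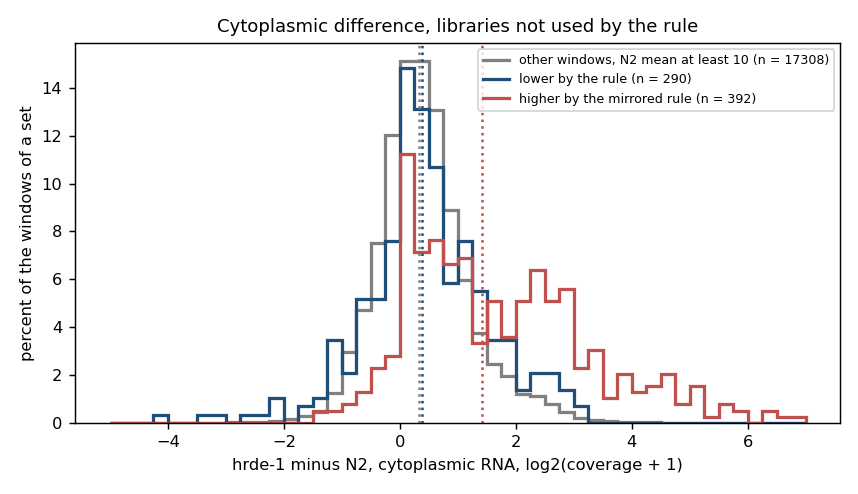
Distribution of the cytoplasmic difference, hrde-1 minus N2 on log2(coverage + 1), as percent of the windows of each set: the 290 windows of the rule, the 392 windows of the mirrored rule and the other windows with an N2 mean of at least 10. The 290 windows lie with the other windows, with medians of 0.38 and 0.34, and the mirrored windows lie to the right, with a median of 1.41.

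The call of the seventh lower window, I:14657001-14658000, rests on 6 reads. Its cytoplasmic values were 9.26 and 12.7 in N2 and 0.1 in both hrde-1 libraries (log2 difference -3.43, limma adjusted p = 0.0282). Against a floor of 3 reads over the group, hrde-1 was 3.62-fold lower. That value leaves out counting error in the 6 reads and is not a lower limit. The call was lost in 15 of 21 alternatives. This window also lies just inside the limit of the rule.

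The 4 windows that rose in hrde-1 cytoplasm while lower in whole and nuclear RNA were I:9720001-9721000, I:10575001-10576000, III:9810001-9811000 and IV:2703001-2704000. At I:9720001-9721000 the cytoplasmic values were 4.68 and 0.1 in N2 and 20.7 and 23.1 in hrde-1 (log2 difference 3.19, limma adjusted p = 0.0286). Whole RNA there went the other way, with 26.6 and 25.4 in N2 against 16.5 and 14.9 in hrde-1. By reads, hrde-1 cytoplasm held 11.6 times the N2 coverage, with an exact interval of 1.87 to 480 because N2 held 1 read against 21. At I:10575001-10576000 N2 held 2 reads and hrde-1 22, and at III:9810001-9811000 N2 held 1 and hrde-1 16. At IV:2703001-2704000 N2 held 0 and hrde-1 7. Against a floor of 3 reads in N2 this is 1.29-fold higher, a value that leaves out counting error in the 7 reads and is not a lower limit. In each of the 4 both hrde-1 libraries lay above both N2 libraries, but the N2 values rest on at most 2 reads, and 0 of these calls remained under either weighting.

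The cytoplasmic difference varied with the level of the window in N2, in classes chosen after the values were seen. For N2 means of 10 to 15, 154 windows of the rule had a median cytoplasmic log2 difference of 0.42, beside 0.44 in the other windows of that level. For 15 to 30, 108 windows had 0.45 beside 0.42, and for 30 to 60, 21 windows had 0.20 beside 0.34. The 7 windows at 60 and above had a median of -0.46 beside 0.17, all 7 were below 0, and in 5 both hrde-1 libraries lay below both N2 libraries. Of these 7, 2 lie in the chromosome II region and 4 in the chromosome III region, so they are not independent of each other. The seventh is I:12862001-12863000. The rule took 3.48% of the windows of the lowest class and 0.248% of those at 60 and above.

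**Figure D4:**
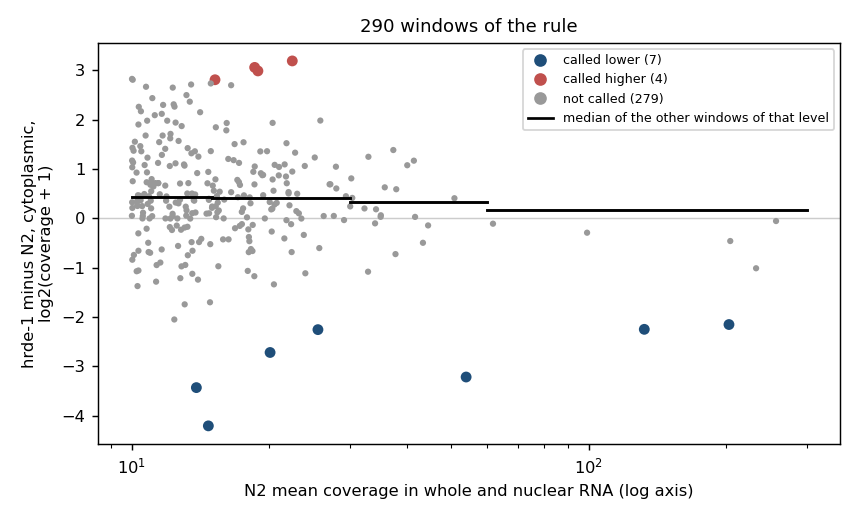
Cytoplasmic difference, hrde-1 minus N2 on log2(coverage + 1), against the N2 mean over whole and nuclear RNA (log axis) for the 290 windows of the rule; blue points were called lower (7), red points higher (4) and grey points not called (279), and black lines give the median of the other windows at each level. At 60 and above, all 7 points lie below 0.

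A single window with a high value in hrde-1 cytoplasm, picked after its values were seen, was III:4807001-4808000. Its cytoplasmic coverage was 27.6 and 47.3 in N2 and 82.4 and 83.0 in hrde-1, while whole RNA coverage was 55.9 and 49.4 in N2 and 23.4 and 26.1 in hrde-1. The genotypes did not overlap in either fraction and stood in opposite order, with a cytoplasmic log2 difference of 1.17 that did not pass the test (limma adjusted p = 0.0844).

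The balance of nuclear to whole RNA was not a term of the rule, but it comes from the same libraries that chose the windows, and a window could be chosen through 1 fraction: 117 of the 290 also passed on whole RNA alone and 152 on nuclear RNA alone. Its values are therefore given as a description, and nothing is read from the counts of calls. In N2 the median log2 difference, nuclear minus whole, was 0.03 in the windows of the rule and -0.03 in all windows with an N2 mean of at least 10. In hrde-1 it was -0.04 beside -0.08. In N2, 0 of the 290 windows were called in either direction (limma; 3 lower and 10 higher at an unadjusted p under 0.05, lowest adjusted p 0.182), against a background of 0.387% called. In hrde-1, 0 were called (15 lower and 11 higher unadjusted, lowest adjusted p 0.125), against 0.339%. The difference between the genotypes in this balance was called in 0 windows (2 lower and 1 higher unadjusted), with 0.0% of all windows tested called. In N2, V:15585001-15586000 and the other 4 windows named with it had more nuclear than whole RNA.

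The windows of the rule lay on every chromosome in the table. Chromosome I held 68, II 39, III 63, IV 45, V 38 and X 37, which was between 1.32% (II) and 2.42% (X) of the windows with the N2 minimum. With each chromosome cut into 3 sections of equal length, the left sections gave 2.19%, the middle sections 1.27% and the right sections 1.71%. The left section of chromosome III held 27 of 899 such windows and that of chromosome IV 27 of 898, or 3.00% and 3.01%, while the right section of IV gave 0.652%. The stretch III:4000001-5000000, which holds both named regions of chromosome III, had 12 of 410 such windows, or 2.93%; other stretches of 1 Mb had larger shares, such as 4 of 65 at II:2000001-3000000 and 9 of 184 at IV:4000001-5000000, or 6.15% and 4.89%. These shares are a description, and neighbouring windows of 1 transcript are not independent.

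**Figure D5:**
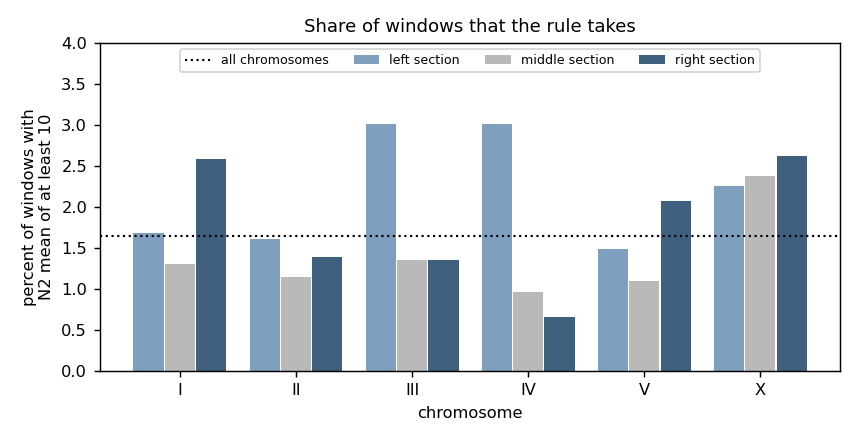
Percent of the windows with an N2 mean of at least 10 that the rule took, for the left, middle and right section of each chromosome, of equal length; the dotted line is the share over all chromosomes, 1.65%. The left sections of chromosomes III and IV stand highest, at 3.00% and 3.01%.

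The deposited table marks windows as GRTS or GRH, which in this field name windows that germline nuclear RNAi silences (GRTS) or covers with heterochromatin marks (GRH). None of the 290 windows carried either mark: 0 of 290 GRTS and 0 of 290 GRH. Among all windows with the N2 minimum, 2 carried the GRTS mark and 42 the GRH mark, so few could have been taken. Of the mirrored windows, 108 carried GRTS and 37 GRH. The median distance of a window of the rule to the nearest GRTS window was 730.5 kb, against 636 kb for all windows with the minimum, and 10 of them, or 3.45%, lay within 5 kb of a mirrored window, against 2.32%.

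Neighbours that met the rule are themselves among the chosen windows, so the values of the others in whole and nuclear RNA were limited by the choice and are a description only. In the 234 neighbouring windows at 1 kb that met the N2 minimum but not the rule, the log2 differences had medians of -0.12 in whole, -0.23 in nuclear and 0.42 in cytoplasmic RNA. At 5 kb the medians over 182 windows were -0.09, -0.16 and 0.32. All windows with the minimum but outside the rule had -0.07, -0.12 and 0.34.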

How the data were processed

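Coverage was measured by RNA-seq in 12 libraries of 6 groups (N2 and hrde-1; whole, nuclear and cytoplasmic RNA). The deposited values are coverage signal per window of 1000 bases, normalized by the authors; Bowtie 0.12.7 was used per the submitters' processing notes. No source used here gives the scale, strand, build or treatment of repeated reads. GRTS and GRH marks are further columns, per the file headers.

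Windows were taken by the rule in the report. The members and lists were chosen with earlier results of these data known. Libraries were grouped by the labels; replicates 1 and 2 are generations 3 and 4. Differences were tested with limma 3.58.1 in R 4.3.3 (lmFit, eBayes with trend, two-sided) on log2(coverage + 1), which understates changes of low windows, over all 43933 windows with a mean of at least 1, in 1 fit of 6 groups with Benjamini-Hochberg adjustment and a threshold of 0.05. The code was tested on simulated data. Read equivalents are (coverage minus 0.1) divided by the step of a library, 1.05 to 4.58; 80.2% to 89.7% of values below 40 lay within 0.0065 of a whole multiple. Exact 95% intervals are conditional Clopper-Pearson, by scipy 1.17.1. Named windows were the 10 highest in N2, the 10 with the largest ratio, those called in cytoplasm, the 3 on each side of the limit and the regions with the most windows.

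Replicates differed by more than sampling noise. Other pseudocounts, filters, scalings, a generation block, left-out libraries, a fit of the compared groups alone and 2 weightings were tried. In the table, chromosome V ends at 20920000, before the last annotated gene of the reference, so that annotation was not used, and no sequences are shown.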

Additional observations from a re-analysis of the deposited data

Results flagged for a closer look

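In 4 of the 290 windows the difference went one way in cytoplasm and the other way in whole and nuclear RNA, in every library compared. The lower mean of whole and nuclear RNA was set by the rule, and the difference between fractions was not tested. Over all windows tested, 0.803% were called higher in cytoplasm. All 4 calls were lost under quantile normalization, under either weighting and in the fit of the compared groups alone. The cytoplasmic log2 differences, hrde-1 minus N2, were 3.19 at I:9720001-9721000, 3.06 at I:10575001-10576000, 2.99 at III:9810001-9811000 and 2.81 at IV:2703001-2704000. N2 held 1, 2, 1 and 0 cytoplasmic reads in these windows, and the part of depth in the result was not tested.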

How the results depend on the processing

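The count of windows called lower in cytoplasm, 7, was 4 under quantile normalization, 4 with library weights, 3 with read depth weights and 0 in the fit of the compared groups alone, which called 0 windows in all; leaving out 1 library gave 2 to 11. The count called higher, 4, was 2 with a pseudocount of 10, 2 with no filter, 2 with median scaling, and 0 with quantile normalization, the compared groups alone, library weights and read depth weights; leaving out 1 library gave 0 to 55, with 55 without N2 cytoplasmic replicate 2 and 14 without replicate 1, where 3926 of 44659 and 1165 of 44545 windows of the whole table were called higher, against 353. With generation as a replicate block, 8 were called lower and 5 higher. Among all 43933 windows tested, 28 were called lower and 353 higher in the main fit. These became 5 and 65 under quantile normalization, 4 and 55 with library weights, and 4 and 17 with read depth weights. The median cytoplasmic log2 difference, 0.38, was 0.026 with median scaling and 0.11 with quantile normalization, and 0.17 to 0.50 without 1 library. Windows called higher in nuclear than whole RNA, 0 in both genotypes, were 3 in N2 with a pseudocount of 10, and 4 in N2 and 1 in hrde-1 with read depth weights. The rule's 290 windows became 24 at a fold of 2, 23 with 10 added to each mean and 28 with a minimum N2 mean of 30. They became 197 with median scaling of the libraries (173 shared), 543 on whole RNA alone (117 shared) and 933 on nuclear RNA alone (152 shared). The cause of these changes was not tested. Cytoplasmic depth limits single windows: the median was 4 reads over both N2 libraries and 10 in hrde-1.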
